A study of Mus musculus with 4 samples.

Results

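Toll-like receptors recognise microbial products at the cell surface or inside endosomes and signal through adaptor proteins, kinases and ubiquitin ligases to the IKK complex, which releases NF-kB transcription factors into the nucleus. NOD receptors and inflammasomes do the same kind of surveillance in the cytosol, and an active inflammasome lets caspase-1 cut the precursors of IL-1β and IL-18. The IL-1 receptor uses the same adaptor and kinases as most Toll-like receptors, so that a stromal cell can take part in inflammation either by sensing a microbe itself or by answering IL-1 made by other cells. Mesenchymal stromal cells (MSCs) of the bone marrow hold and feed hematopoietic stem cells, and both routes are known to change what they secrete.

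The levels of 42 named genes of this pathway were read from 4 RNA-seq libraries of sorted MSCs, out of 56980 genes in the count table. The genes were chosen by symbol, as 9 Toll-like receptors, 2 co-receptors for lipopolysaccharide, the adaptors, kinases and ubiquitin ligases below them, the IKK complex, the 5 NF-kB subunits, 1 inhibitor, NOD and inflammasome genes, and IL-1 family ligands and receptors. Each library came from the bone marrow of 1 wild-type male C57BL/6J mouse aged 14 weeks, from a strain that had long been bred in-house. The sort kept cells with CD51 and PDGFRa and left out those with CD45, Ter119, CD31 or Sca1, and a small pool of sorted cells of each mouse gave 1 polyA RNA library, made by PCR amplification and with no molecular identifiers described. The 4 mice, called mouse 1 to mouse 4 here, form a single group, so there is no treatment, genotype or age to compare, and the spread given below is that between mice.

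The libraries held between 22738604 and 43545349 counts. Between 16109 and 18907 genes were detected, with the fewest in mouse 2. The sort was checked on marker genes. All 8 stromal genes, among them Pdgfra and Itgav for the sort antigens and Cxcl12 and Lepr for the niche cell, lay above 1 TPM (counts per base of exon length, scaled to a library total of 1000000) in every mouse. Of 10 macrophage and monocyte markers, 7 had no count in any library, including Adgre1 and Csf1r, and the B and T cell markers were at 0 apart from 22 counts of Cd79a in mouse 4 and 1 of Cd3g in mouse 3. Osteoblast genes were high in all mice, with a summed level of 77792 to 168024 TPM, and the summed erythroid level was lowest in mouse 2, at 21.1 TPM, and highest in mouse 1, at 3907 TPM. Ly6a, which encodes the Sca1 antigen that the sort left out, had 120 counts in mouse 2 and 144 in mouse 4 and at most 1 count in the others.

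The start-site windows of 4 genes are shown because they stand for the kinds of promoter met below. They are the 250 bases before the annotated start, read 5′ to 3′ on the strand of the gene, from RefSeq on GRCm38.p6. In the window of Tnfaip3 (chr10:19015411-19015660, minus strand) the capitals mark a match to the NF-kB motif GGANTTTCC. In the windows of Rela (chr19:5637291-5637540, plus strand), Casp1 (chr9:5298267-5298516, plus strand) and Tlr8 (chrX:167264330-167264579, minus strand) they mark CG dinucleotides, 23 in Rela and 1 each in Casp1 and Tlr8.
Tnfaip3: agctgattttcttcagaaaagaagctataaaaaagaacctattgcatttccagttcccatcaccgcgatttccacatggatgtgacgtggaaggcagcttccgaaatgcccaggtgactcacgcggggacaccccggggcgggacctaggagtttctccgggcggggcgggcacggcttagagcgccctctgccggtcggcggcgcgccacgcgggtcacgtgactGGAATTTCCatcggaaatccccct
Rela: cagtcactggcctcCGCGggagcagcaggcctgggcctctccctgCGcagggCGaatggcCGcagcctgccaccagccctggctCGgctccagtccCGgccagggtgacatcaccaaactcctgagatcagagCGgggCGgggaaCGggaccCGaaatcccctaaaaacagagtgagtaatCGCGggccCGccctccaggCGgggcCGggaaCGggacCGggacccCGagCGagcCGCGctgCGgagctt
Casp1: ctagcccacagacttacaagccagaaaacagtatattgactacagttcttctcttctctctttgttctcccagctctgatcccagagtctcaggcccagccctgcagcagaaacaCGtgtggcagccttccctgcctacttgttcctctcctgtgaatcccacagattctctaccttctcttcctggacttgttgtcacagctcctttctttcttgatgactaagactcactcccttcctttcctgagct
Tlr8: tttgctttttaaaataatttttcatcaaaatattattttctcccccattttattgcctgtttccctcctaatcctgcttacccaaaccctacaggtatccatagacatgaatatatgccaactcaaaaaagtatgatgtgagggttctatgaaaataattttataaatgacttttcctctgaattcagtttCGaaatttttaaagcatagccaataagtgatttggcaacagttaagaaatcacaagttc

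Most genes of the signalling core of the pathway passed the cutoff by their median, while most of its microbial sensors and all 3 ligands missed it. A median above 1 TPM, the cutoff that the study used for expression, was reached by 29 of the 42 genes (69.0%), against 44.2% of the 21922 protein-coding genes and 22.9% of all genes with a length. All 3 adaptors, 3 IRAK kinases, 3 TRAF ligases, 3 genes of the TAK1 complex, 5 NF-kB subunits and both IL-1 receptor genes were among the 29. Of the 3 genes of the IKK complex, 2 were among them, and 1 was above 1 TPM in every mouse. Only 3 of the 9 Toll-like receptors and none of the 3 ligands were. Above 1 TPM in each of the 4 mice lay 17 genes (40.5%), against 30.1% of protein-coding genes and 15.4% of all genes. At least 3 counts in every mouse, the floor taken for detection, were found for 26 genes (61.9%), against 37.5% of protein-coding and 19.6% of all genes. The median of the 42 median levels was 2.98 TPM, against 0.135 TPM over protein-coding genes. Among genes past the cutoff the order was the other way, with 6.85 TPM over the 29 and 9.86 TPM over the 9684 protein-coding genes.

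**Figure D1:**
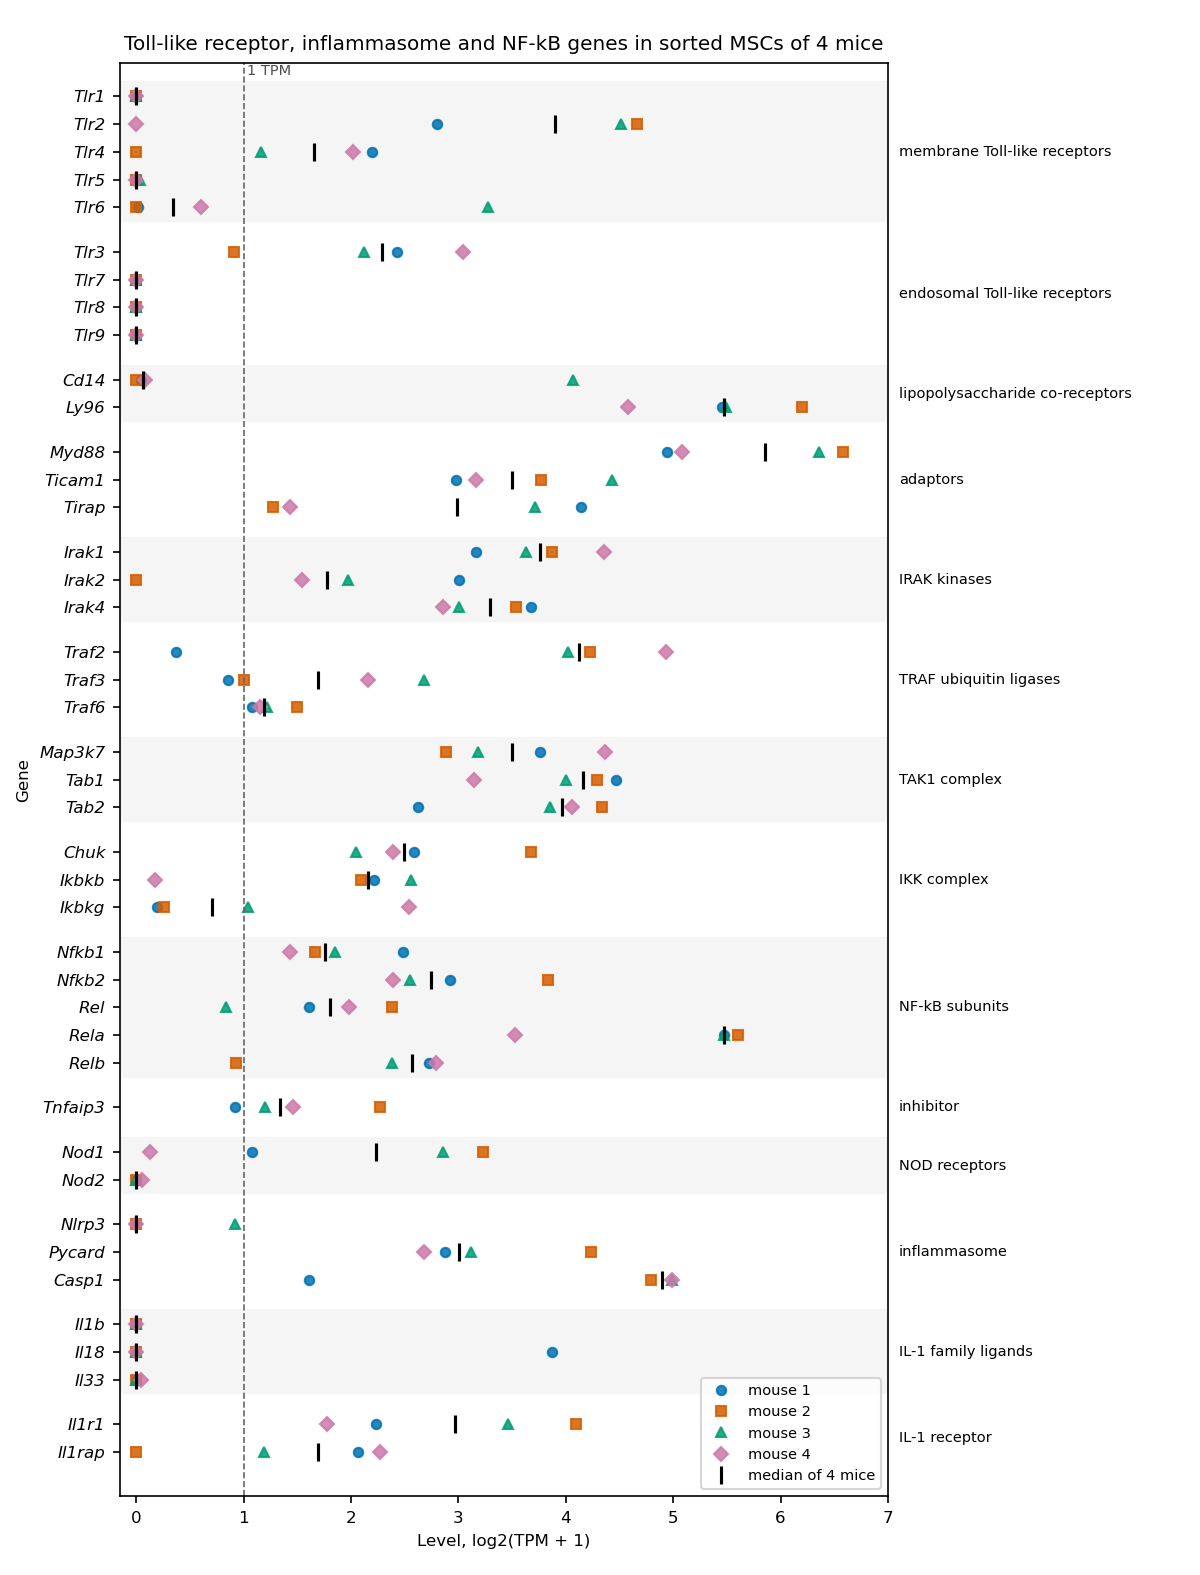
Level of each of the 42 genes in each mouse, on the scale log2(TPM + 1), grouped by role. Coloured points are the 4 mice, the black tick is the level of their median and the dashed line is 1 TPM. The adaptors, the TAK1 complex and Ly96 lie to the right of the line in all 4 mice, and Tlr1, Tlr7, Tlr8, Tlr9 and Il1b lie at 0 in all 4, while Il18 is at 0 in all but mouse 1.

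Of the receptors of the cell surface, Tlr2 and Tlr4 passed the cutoff, each with a mouse in which no read was counted. Tlr2 (chr3:83836272-83841767 on GRCm38), the receptor for bacterial lipoproteins, had 317, 817, 1135 and 0 counts in mice 1 to 4, or 5.98, 24.4, 21.8 and 0 TPM. Tlr4 (chr4:66827584-66930284), the receptor for lipopolysaccharide, had 349, 0, 119 and 175 counts, or 3.57, 0, 1.24 and 3.05 TPM. Reads of Tlr4 but not of Tlr2 were thus counted in mouse 4, and the reverse was seen in mouse 2. Mice 1 and 3 had reads of both. For 52.3% of protein-coding genes in the expression band of Tlr4 (above 1 and up to 5 TPM by the mean), some mouse fell under 3 counts. In the band of Tlr2 (above 5 and up to 20 TPM) this share was 18.4%. The part of the small amplified pools in these counts of 0 was not tested. A count of 0 allows up to 3 counts, which is 0.0963 TPM for Tlr2 in mouse 4 and 0.0485 TPM for Tlr4 in mouse 2, far under the levels in the other mice. In a bulk library fewer cells with a transcript and less of it in each cell cannot be told apart. The difference between the receptors within a mouse, Tlr4 minus Tlr2, was -1.65 ± 2.97 (SD, n = 4 mice) on the log2(TPM + 1) scale, with Tlr2 higher in 3 of 4 mice. The exact two-sided sign-flip permutation test gave p = 0.375 (adjusted over 8 pairs, p = 0.375), and it cannot go below 0.125 with 4 mice. Without mouse 4 the difference was -2.87, and without mouse 2 it was -0.65.

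The partners of Tlr2 differed from it. Tlr1 had no count in any mouse. Tlr6, which like Tlr1 pairs with Tlr2, had 1, 0, 559 and 20 counts, or 0.0153, 0, 8.68 and 0.519 TPM, so that mouse 3 stood far above the others and only there was the level above 1 TPM. Tlr5, the flagellin receptor, had 2 counts in mouse 3 and none elsewhere, which is under the floor.

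Of the receptors of endosomes, Tlr3 alone was detected. Tlr3, which binds double-stranded RNA, had 403, 51, 302 and 391 counts, or 4.40, 0.880, 3.36 and 7.27 TPM, with mouse 2 well below the other 3. Tlr7 and Tlr8, for single-stranded RNA, and Tlr9, for unmethylated CpG DNA, had 0 counts in all 4 libraries. A count of 3 would be 0.0418 to 0.0711 TPM for Tlr7, 0.0476 to 0.0810 TPM for Tlr8 and 0.0490 to 0.0835 TPM for Tlr9, so that any level lay under these values. Such floors cover counting error only.

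The co-receptors for lipopolysaccharide went apart. Ly96, which encodes the MD-2 protein that sits on TLR4 and holds the lipid, had 42.9, 72.6, 44.0 and 22.9 TPM and was the second highest of the 42 genes, at 45.6 ± 20.4 TPM (SD, n = 4). Cd14, which hands the lipid on, had 1, 0, 471 and 1 counts, or 15.7 TPM in mouse 3 and at most 0.0559 TPM in the others. Ly96 exceeded Tlr4 in every mouse, also in mouse 2, where Tlr4 had no count. Ly96 minus Tlr4 was 4.09 ± 1.58 (SD, n = 4) on the log2(TPM + 1) scale, higher in 4 of 4 mice, with the smallest p that the exact permutation test can give (p = 0.125, adjusted p = 0.25). Where Tlr4 was detected the ratio of the TPM values was 12.0 in mouse 1, 35.5 in mouse 3 and 7.53 in mouse 4.

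**Figure D2:**
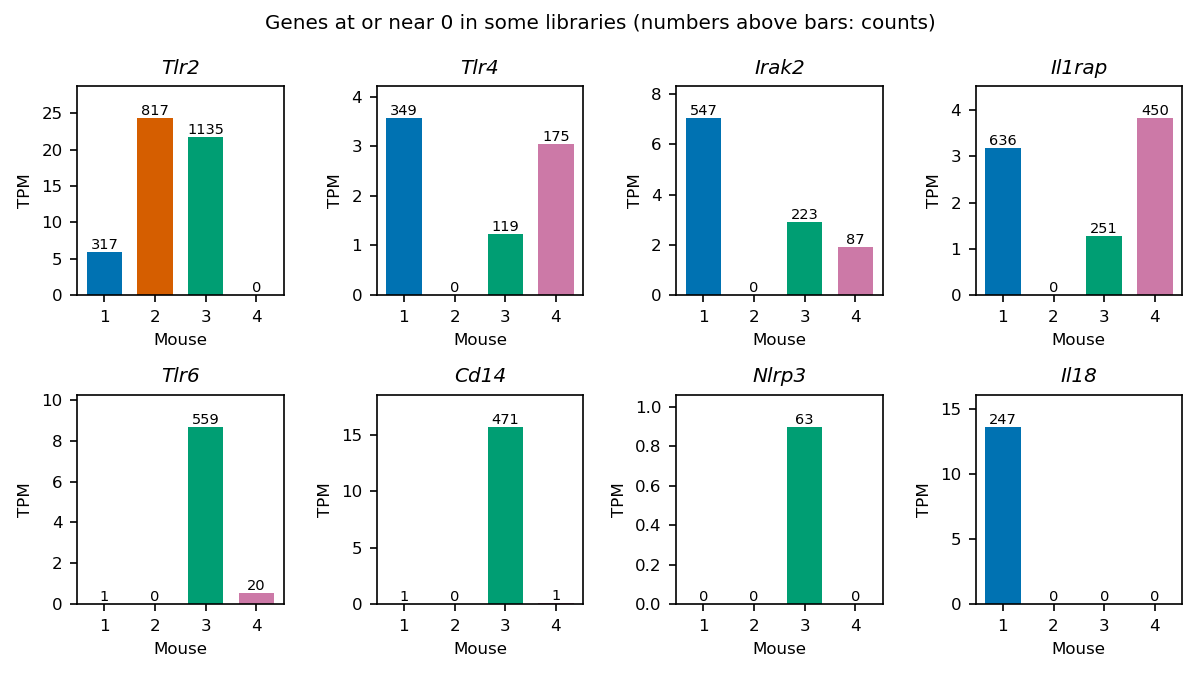
Level in TPM (bars, linear axes from 0) of 8 genes that were at or near 0 in at least 1 library, with the counts above the bars. Tlr4, Irak2 and Il1rap are all at 0 in mouse 2, Tlr2 is at 0 in mouse 4, Tlr6, Cd14 and Nlrp3 stand out in mouse 3 and Il18 in mouse 1.

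All 3 adaptors were above 1 TPM in each mouse. Myd88 (chr9:119335934-119341411), the adaptor shared by the IL-1 receptor and all Toll-like receptors but Tlr3, was the highest of the 42 genes. Its level was 29.7, 94.5, 81.0 and 32.8 TPM, with mice 2 and 3 well above mice 1 and 4, or 59.5 ± 33.1 TPM (SD, n = 4). Ticam1, which encodes TRIF, the adaptor of Tlr3 and of internalised Tlr4, had 6.88, 12.6, 20.5 and 7.99 TPM. Myd88 minus Ticam1 was 2.15 ± 0.44 (SD, n = 4) on the log2(TPM + 1) scale, the steadiest of the 8 differences, in 4 of 4 mice, with exact permutation p = 0.125 (adjusted p = 0.25). The ratio Myd88 over Ticam1 was 4.32, 7.47, 3.95 and 4.11. Tirap, the bridge between Myd88 and the receptors Tlr2 and Tlr4, was uneven, at 16.7, 1.42, 12.1 and 1.71 TPM, high in mice 1 and 3 and low in mice 2 and 4. Of the exon bases of Myd88, 11.3% overlap Acaa1a on the opposite strand. Counting was unstranded by default, so strand could not part reads of Acaa1a from reads of Myd88 in these bases. Under the options given, a read pair that fits both genes equally is counted for neither, so the overlap can lower the level. The same holds for 11.6% of the exon bases of Nfkb2, opposite AC114539.1, with a further 6.52% opposite Psd, for 12.8% of Pycard, opposite Gm45205, and for 7.87% of Irak4, opposite Twf1. Of the longest transcript of Tirap, 13.2% is nearly identical to stretches in 9 other genes.

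Of the IRAK kinases, which dock on Myd88, Irak4 and Irak1 were present throughout. Irak4, the first kinase of the complex, had 11.8, 10.6, 7.05 and 6.24 TPM, or 8.92 ± 2.69 (SD, n = 4), with a coefficient of variation of 30.2%. Irak1 had 7.98, 13.6, 11.4 and 19.5 TPM, in another order of mice. Irak1 minus Irak4 was 0.49 ± 0.83 (SD, n = 4) on the log2(TPM + 1) scale, positive in 3 of 4 mice (exact permutation p = 0.375, adjusted p = 0.375). The mean difference was smaller than its SD, and with 4 mice the test cannot show that the levels are equal. Irak2 had 547, 0, 223 and 87 counts, or 7.05, 0, 2.93 and 1.91 TPM. Of its longest transcript, 37.0% is at least 95% identical to stretches in 73 other genes, so that part of its counts is uncertain.

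The TRAF ubiquitin ligases differed in how even their levels were. Traf6, which carries the Myd88 signal on to TAK1, had 155, 160, 181 and 100 counts, or 1.12, 1.82, 1.33 and 1.23 TPM. Its mean of 1.37 ± 0.312 TPM (SD, n = 4) was low, and its coefficient of variation of 22.7% was the smallest of the 37 genes with a count in any mouse. Traf2, used by TNF receptors, had 26 counts in mouse 1 and 1002, 1343 and 1553 in mice 2 to 4, or 0.290, 17.7, 15.2 and 29.5 TPM, so that mouse 1 stood apart. Traf3, which restrains the alternative NF-kB route, had 0.812, 1.003, 5.42 and 3.46 TPM.

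The TAK1 kinase complex, which joins TRAF6 to the IKK complex, was above 5 TPM in every mouse for all 3 of its genes. Map3k7, the kinase itself, had 12.5, 6.40, 8.11 and 19.6 TPM. Tab1, its activator, had 21.1, 18.6, 15.1 and 7.83 TPM, and Tab2, which reads ubiquitin chains, had 5.15, 19.3, 13.5 and 15.7 TPM. The means of 11.7 ± 5.88, 15.7 ± 5.78 and 13.4 ± 5.98 TPM (SD, n = 4) lay within each other's spread, and no order among the mice was shared by the 3 genes.

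The IKK complex was lower. Chuk (IKKα) had 5.01, 11.8, 3.13 and 4.24 TPM. Ikbkb (IKKβ) had 1223, 693, 1615 and 25 counts, or 3.64, 3.27, 4.90 and 0.127 TPM, with mouse 4 far below the others. Ikbkg (NEMO), the scaffold that canonical signalling needs, had 21, 18, 148 and 403 counts, or 0.147, 0.200, 1.06 and 4.81 TPM. Of the genes chosen between Toll-like receptor and NF-kB, Ikbkg alone had a median, 0.628 TPM, that missed the cutoff, although it was detected in all 4 mice. Among the related signalling genes listed further below, Ticam2, Map3k14, Traf1 and Peli3 also missed it. Their medians were 0.764, 0.242, 0.143 and 0 TPM. Mouse 4, the lowest for Ikbkb, was the highest for Ikbkg, and 5.15% of the exon bases of Ikbkg lie opposite exons of G6pdx, a gene with 470, 565, 1968 and 0 counts. Chuk minus Ikbkb was 0.92 ± 1.22 (SD, n = 4) on the log2(TPM + 1) scale, positive in 3 of 4 mice (exact permutation p = 0.375, adjusted p = 0.375). Its sign depends on length, since the merged exons of Ikbkb span 19078 bases. With the longest transcript in their place the level of Ikbkb was 9.18 ± 6.25 TPM in place of 2.98 ± 2.03, and the difference was -0.06.

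All 5 NF-kB subunits passed the cutoff and 1 dominated. Rela (chr19:5637483-5648130), the p65 subunit of the canonical dimer, had 43.4, 47.5, 43.4 and 10.6 TPM, nearly equal in 3 mice and lower in mouse 4. Rel, the related subunit c-Rel that is most used in lymphocytes, had 2.06, 4.20, 0.783 and 2.94 TPM. Rela minus Rel was 3.32 ± 1.31 (SD, n = 4) on the log2(TPM + 1) scale, in 4 of 4 mice (exact permutation p = 0.125, adjusted p = 0.25), and the ratio of Rela to Rel was 21.1, 11.3, 55.4 and 3.59. Relb, the partner in the alternative route, had 5.62, 0.902, 4.23 and 5.90 TPM, with mouse 2 lowest.

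Nfkb1 and Nfkb2 encode the precursors p105 and p100. Nfkb1 had 4.58, 2.18, 2.61 and 1.69 TPM, and Nfkb2 had 6.57, 13.3, 4.87 and 4.24 TPM. Nfkb2 was the higher in 4 of 4 mice, with Nfkb1 minus Nfkb2 at -1.07 ± 0.76 (SD, n = 4) on the log2(TPM + 1) scale (exact permutation p = 0.125, adjusted p = 0.25). This difference too rests on length, since the merged exons of Nfkb1 span 12061 bases. By the longest transcript it was -0.05, and as counts scaled to 1000000 (CPM), with no length at all, it was 0.05.

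**Figure D3:**
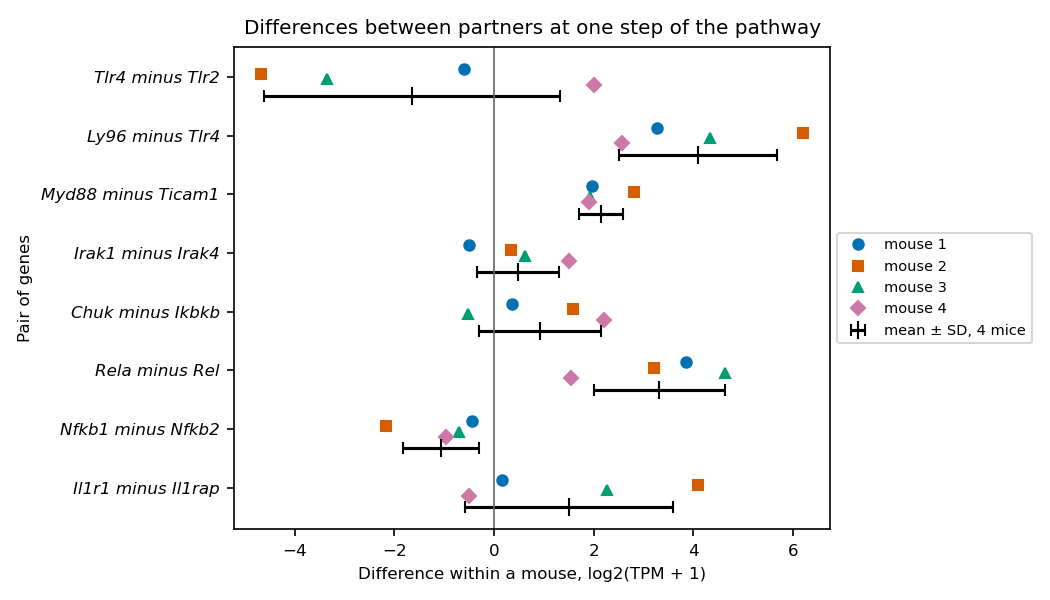
Difference in log2(TPM + 1) between the genes of 8 pairs within each mouse (coloured points), with the mean and SD over the 4 mice (black tick and bar). Ly96 over Tlr4, Myd88 over Ticam1, Rela over Rel and Nfkb2 over Nfkb1 had the same sign in all 4 mice, and the other 4 pairs had a mouse on either side of 0.

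Tnfaip3, which encodes the A20 enzyme that removes ubiquitin chains and ends the signal, was at the low end, with 113, 308, 162 and 131 counts, or 0.889, 3.83, 1.30 and 1.75 TPM. Mouse 2 was above the other 3 mice. Its window printed above holds the NF-kB motif 24 bases before the start.

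In the cytosolic branch, the inflammasome adaptor Pycard and the protease Casp1 were above 1 TPM in every mouse, while the sensor Nlrp3 was detected in mouse 3 only and Nod1 passed the cutoff by its median. Pycard, which encodes ASC, had 6.36, 17.9, 7.71 and 5.42 TPM. Casp1 (chr9:5298517-5307265) had 54, 446, 798 and 477 counts, or 2.05, 26.8, 30.8 and 30.8 TPM, so that 3 mice were close together and mouse 1 was lower. Nlrp3 (chr11:59541568-59566956), the sensor that joins them in macrophages, had 63 counts in mouse 3, or 0.899 TPM, and 0 in the other 3 mice. Nod1, the receptor for a peptidoglycan fragment of mostly Gram-negative bacteria, had 1.11, 8.39, 6.27 and 0.0953 TPM, high in mice 2 and 3. Nod2, the muramyl dipeptide receptor, had 2 counts in mouse 4 and none elsewhere.

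The 3 IL-1 family ligands were under the floor of 3 counts in every mouse, except Il18 in mouse 1. Il1b had no count in any mouse, which allows up to 0.0894 to 0.152 TPM. Il18 had 247 counts in mouse 1, or 13.6 TPM, and 0 in mice 2 to 4, and Il33, an alarmin of stromal and epithelial cells, had 1 count in mouse 4. Mouse 1, the only one with Il18, was the one with the lowest Casp1. Il1r1, the receptor chain that binds IL-1, had 3.71, 16.1, 9.99 and 2.42 TPM, and was thus above 1 TPM in each mouse. Il1rap, the accessory chain needed to signal, had 636, 0, 251 and 450 counts, or 3.18, 0, 1.28 and 3.83 TPM. The mouse with the highest Il1r1 was the one in which Il1rap had no count. Il1r1 minus Il1rap was 1.51 ± 2.09 (SD, n = 4) on the log2(TPM + 1) scale, positive in 3 of 4 mice (exact permutation p = 0.375, adjusted p = 0.375), and 0.65 without mouse 2.

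The uneven genes were read against all genes. Of the 29 genes past the cutoff, 4 (13.8%) had under 3 counts in at least 1 mouse, namely Tlr2, Tlr4, Irak2 and Il1rap, against 18.1% of protein-coding genes past it. A mouse apart from the other 3, by Dixon's critical value for the gap, was found for 2 of the 29 (6.90%), Rela and Casp1, against 5.4% of protein-coding genes. Over all genes with any range it was 9 of 37, against 29.5% of 15466 protein-coding genes. Shares of this size lay near or below those of protein-coding genes. Against protein-coding genes of like mean level, the spread was lower at 1 to 5 TPM, near at 5 to 20 TPM and higher at 20 to 100 TPM. The median coefficient of variation was 82.9% over 16 of the 42 genes and 98.8% over 3642 protein-coding genes at 1 to 5 TPM. It was 57.2% over 13 and 60.0% over 3822 at 5 to 20 TPM, and 51.6% over 4 and 39.3% over 2318 at 20 to 100 TPM. In the lowest of these bands 6 of the 16 fell under 3 counts in some mouse, against 52.3% of its protein-coding genes. In the middle band it was 1 of the 13, against 18.4%. Each library was made from a small pool of sorted cells and amplified by PCR, so the spread between mice includes which cells were drawn and how they were amplified, and these cannot be told apart here. Some summed levels of blood cell markers were highest in the same mouse as some of these genes, though the single markers were not all highest there. In mouse 3, where Tlr6, Cd14 and Nlrp3 stood out, the summed level of the 10 macrophage and monocyte markers was 9.45 TPM, against 0.0564, 0.254 and 0.623 TPM in mice 1, 2 and 4. All but 0.0908 TPM of it was C1qb with 176 counts, while Adgre1, Csf1r, C1qa, C1qc, Cx3cr1, Itgam and Ccr2 were at 0 there as elsewhere. In mouse 1, where Il18 stood out, the summed level of 8 neutrophil markers was 39.7 TPM, against 6.90 to 19.7 TPM in the other 3. Elane had 261 counts in mouse 1 only, and S100a8 and Camp were also highest there. S100a9 was highest in mouse 2, at 19.6 TPM, and Mpo and Cxcr2 in mouse 3, while Ltf and Ngp were at 0 in all. The summed erythroid level was also highest in mouse 1, and 122 counts of the platelet gene Gp9 were found in mouse 1 only. Ptprc, the gene of CD45, had 2, 2, 0 and 50 counts in mice 1 to 4. The part of such cells in the levels of these genes was not tested.

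Mouse 2 held the highest level of 13 of the 29 genes past the cutoff, against 26.2% of protein-coding genes past it. Mouse 1 was highest for 6, mouse 3 for 4 and mouse 4 for 6, against 26.8%, 31.3% and 15.7% of protein-coding genes. The 13 were Tlr2, Ly96, Myd88, Traf6, Tab2, Chuk, Nfkb2, Rel, Rela, Tnfaip3, Nod1, Pycard and Il1r1, but Tlr3, Tlr4, Tirap, Irak2, Map3k7, Relb and Il1rap were lowest in that same mouse, 7 of 29 against 35.3% of protein-coding genes. The summed level of the 42 genes was 279.9, 452, 412 and 260.1 TPM in mice 1 to 4.

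Genes that NF-kB is known to switch on were taken as a list of 20. Of these, 14 had a median above 1 TPM and 8 were above it in every mouse, against 44.2% and 30.1% of protein-coding genes. Of the 14, 12 were highest in mouse 2, against the 26.2% of protein-coding genes given above. In mouse 1, 8 of the 14 were lowest or tied for lowest, against 21.7% of protein-coding genes past the cutoff. The list was chosen with earlier results of these data known and was not tested. Nfkbia, which encodes the inhibitor IκBα and is a classic feedback target, had 179.8, 639, 366 and 211 TPM. Ccl2, a chemokine for monocytes, had 16.0, 398, 25.9 and 144 TPM. Vcam1, which holds hematopoietic cells, had 30.2, 197, 67.4 and 64.4 TPM. In each of these the level of mouse 2 was the highest by a wide margin. Csf1, the macrophage growth factor, had 26.5, 57.3, 46.1 and 34.9 TPM, and Sod2, a mitochondrial superoxide dismutase, had 20.1, 23.1, 17.0 and 16.3 TPM, with mouse 2 first by less. Birc2 and Bcl2l1 were the 2 that were highest in mouse 1, and Bcl2l1 had no count in mouse 2, and Ccl5, Csf2 and Csf3 had no count in any mouse. Other measures also differed in mouse 2. Of the 8 stromal genes 6 were highest there, with a summed level of 4694 TPM against 1119 to 2425 TPM, the summed erythroid level was lowest there, and the fewest genes were detected there. A set of 8 immediate early genes (Fos, Jun, Junb, Egr1, Atf3, Ier2, Dusp1 and Zfp36), chosen after the values were seen as genes that handling of cells can raise, was highest in mouse 3 in all 8. The part of these in the levels of the target genes was not tested.

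**Figure D4:**
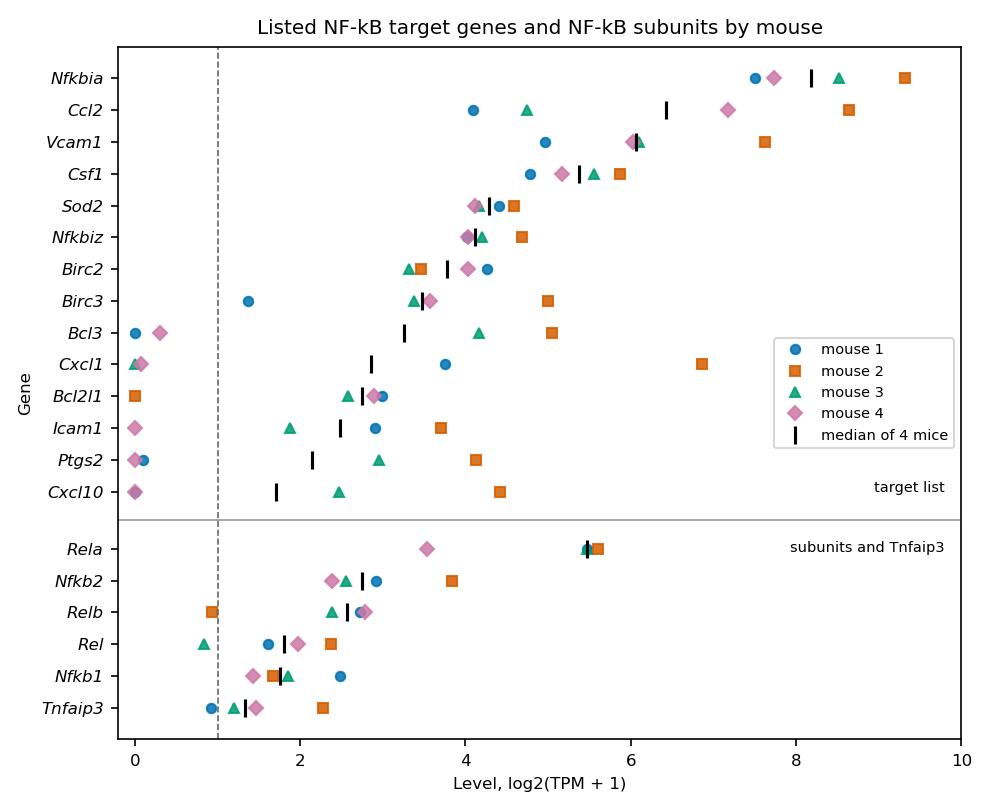
Level of the 14 listed NF-kB target genes with a median above 1 TPM (above the line) and of the 5 NF-kB subunits and Tnfaip3 (under it), on the scale log2(TPM + 1). Coloured points are the 4 mice, the black tick is the level of the median and the dashed line is 1 TPM. The orange squares of mouse 2 lie farthest right for 12 of the 14 target genes and for Rela, Nfkb2, Rel and Tnfaip3, but farthest left for Relb.

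The rest of the pathway was taken from lists of related genes. They are to be read against the 44.2% of protein-coding genes whose median passed 1 TPM and the 30.1% that passed it in every mouse. Of 21 other signalling genes, mostly adaptors, kinases and ubiquitin enzymes, 17 had a median above 1 TPM and 11 were above it in every mouse. By the median, Ube2n, the ubiquitin-conjugating partner of TRAF6, at 24.7 ± 7.43 TPM, Nkiras2 at 30.7 ± 24.1 TPM, and Rbck1, Sharpin and Nkiras1 led it (mean and SD, n = 4). Nkiras1 and Nkiras2 belong to none of these 3 kinds. Of 17 inhibitors, 14 passed and 10 did so in every mouse, led by Nfkbia at 349 ± 209.8 TPM, Il1rn, the antagonist of IL-1, at 80.3 ± 70.8 TPM, Nfkbib, Tnip2 and Il18bp, the binding protein that blocks IL-18. Nfkbid and Sigirr had no count. Il1rn had 26.2, 184, 59.8 and 50.7 TPM and was thus above Il1r1, Il1rap and Il1b in each of the 4 mice.

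Of 9 other Toll-like receptors and chaperones, 4 passed and 3 did so in every mouse, and these 4 were no Toll-like receptors. They were Hsp90b1, the chaperone of Toll-like receptors and integrins, at 351 ± 70.3 TPM, Lbp, which carries lipopolysaccharide to CD14, at 44.0 ± 33.2 TPM, Unc93b1, which takes receptors to endosomes, at 34.03 ± 21.7 TPM, and Cnpy3 at 32.9 ± 23.7 TPM. Cnpy3 had 35.0, 0.237, 56.8 and 39.5 TPM, with mouse 2 far below. Tlr11, Tlr12 and Tlr13 had no count in any library. Of 21 other cytosolic sensors and inflammasome genes, 10 passed by the median, about the share of all protein-coding genes. In every mouse 4 passed, a lower share than the 30.1% of protein-coding genes. Txnip, a regulator of redox state that can bind Nlrp3, led at 102 ± 49.5 TPM. Next came Gsdmd, the pore that caspase-1 opens, at 16.0 ± 13.1 TPM, and then Casp8, Casp4 and Panx1. Among sensors of the NOD-like family, Nlrx1 (12.0, 0, 6.54 and 0 TPM) and Nlrc5 (1.78, 5.25, 0.729 and 4.44 TPM), named after their values were seen, also passed by their median. Nlrp1a, Nlrp1b, Nlrp6, Naip5, Aim2 and Mefv had no count. Of 13 other IL-1 family ligands and receptors, 1 passed, Il1rl2, a chain of the IL-36 receptor, at 11.5, 1.54, 2.04 and 2.05 TPM, and 7 had no count.

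The promoter windows of genes past the cutoff held, by the median, more CG dinucleotides than those of genes detected in at most 1 mouse. RefSeq windows of 250 bases before the start were found for 34 of the 42 genes and not for Cd14, Ikbkb, Relb, Tlr7, Nfkb1, Tlr4, Tab1 and Ly96. Of several windows of a gene, the one whose start lay nearest that of its principal annotated transcript was used. For 31 of the 34 the bases that follow it were found in an annotated transcript of the gene. The starts farthest from that of the principal transcript were those of Il18 (10674 bases), Tirap (326 bases) and Tlr3 (239 bases). The number of CG dinucleotides over that expected from the C and G content had a median of 0.736 over the 23 with a median level above 1 TPM, and of 0.174 over the 9 that reached 3 counts in at most 1 mouse. Across protein-coding genes the medians were 0.755 over 7762 and 0.238 over 7616, close to those of the 32 genes read here. For these protein-coding genes the first listed window was used, which is another rule. The highest values belonged to Traf3 (49 CG in the window, ratio 1.16), Map3k7 (1.03) and Tnfaip3 (1.02). No CG was found in the window of Tlr9 and 1 in that of Tlr8, shown above. A few expressed genes had windows of the other kind, namely Casp1 at 0.0774 with the single CG shown above, Pycard at 0.144 and Il1r1 at 0.205. The ratios of these 3 lay within the range of 0 to 0.314 of the 9 genes, of which Il18 and Nlrp3 were each detected in 1 mouse.

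**Figure D5:**
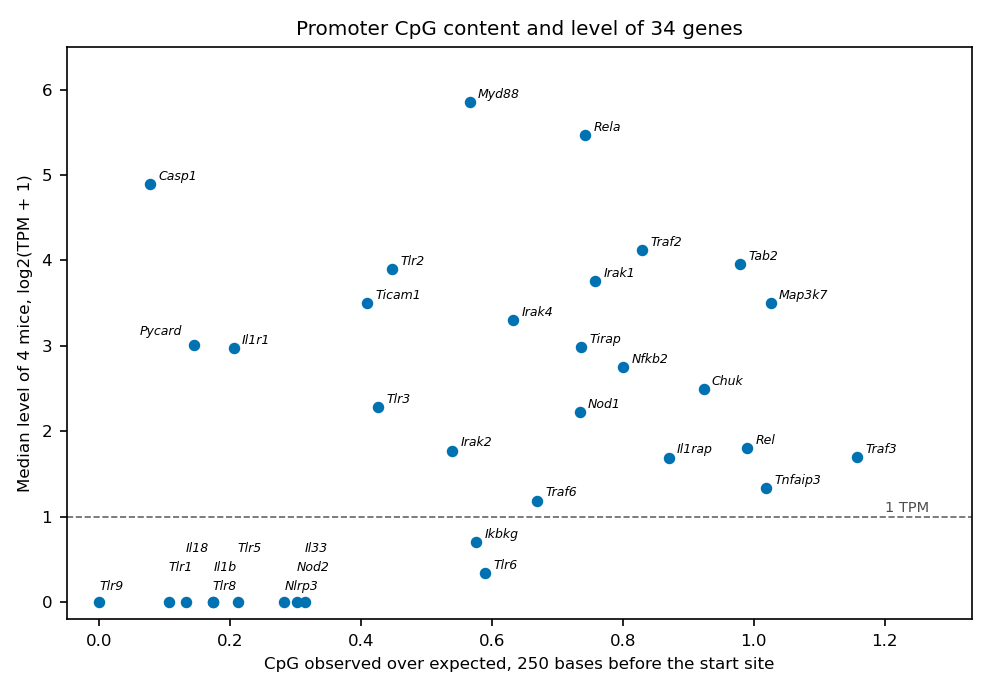
Ratio of observed to expected CG dinucleotides in the 250 bases before the start site (horizontal axis) and median level of the 4 mice on the scale log2(TPM + 1) (vertical axis) of 34 genes. Points at 0 on the vertical axis lie at a ratio of 0.314 or less, and Casp1, Pycard and Il1r1 are the expressed genes that lie in the same range.

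The motif GGANTTTCC, searched on both strands, was found in the windows of 4 of the 34 genes, Tlr3, Map3k7, Tnfaip3 and Nlrp3, against 1.07% of all 32851 windows. A further window of Nfkb2 also holds it. The median levels of these 4 genes were 3.88, 10.3, 1.53 and 0 TPM, and the genes with a window and a higher median, such as Myd88 and Rela, had no match. A match of letters is a description of the sequence and not evidence of binding.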

How the data were processed

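MSCs were sorted from bone marrow of 4 mice, 1 library each. Reads were aligned by the authors with STAR to GRCm39 and counted on exons with featureCounts (Subread 1.6.5), with no strand option given. No option to count a read pair for several genes was given either. The deposited values are raw counts, 1 column per mouse, and no column was left unused. TPM was computed in Python 3.11.15 (pandas 2.3.3) from merged exon lengths of GENCODE M21 on GRCm38, another build than that of the counts, so a gene whose exons changed has a TPM off by the ratio of its lengths. Of 56980 genes, 4855 had no length and were left out. Overlaps came from that annotation and near copies from BLAST 2.17.0 (at least 95% identity over 100 bases). RefSeq promoter windows are those of GRCm38.p6. The TPM code was tested on simulated data.

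With 1 group, no groups were compared. Pairs within a mouse used log2(TPM + 1) and an exact permutation test that flips signs over mice (two-sided), with Benjamini-Hochberg adjustment over 8. Mice are the replicates. All 42 genes are given, and of each list up to 5 genes by median level, with those at 0. The genes and lists were chosen with earlier results of these data known, and no list was tested. Alternatives were other lengths, scalings (including TMM factors of edgeR 4.0.16), cutoffs, a pseudocount of 0.1 and leaving out each mouse. Depth sets the floor, where 3 counts correspond to 0.0689 to 0.132 CPM.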

Additional observations from a re-analysis of the deposited data

Results flagged for a closer look

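In 11 of 40 values compared, 1 of the 4 mice lay apart from the other 3 by Dixon's critical value for 4 samples, applied to the gap to the nearest mouse over the whole range. For values that vary smoothly chance gives about 1 in 20, but 29.5% of protein-coding genes with a range met it. Among the genes described, it was 9 of 37, and 5 of the 9 were counted in 1 mouse only. Rela had a gap of 0.889 with mouse 4 low, and Casp1 one of 0.859 with mouse 1 low. Mouse 3 was high for Tlr6 (0.940), Cd14 (0.996) and Nlrp3 (1), and mouse 1 was high for Il18 (1). The gaps of Tlr5 in mouse 3 (1), Nod2 in mouse 4 (1) and Il33 in mouse 4 (1) rest on 2, 2 and 1 counts, under the floor of 3. The summed level of macrophage and monocyte markers had a gap of 0.940 with mouse 3 high, and Ptprc, the gene of CD45, one of 0.963 with mouse 4 high at 50 counts. A gene counted in only 1 mouse has a gap of 1 by construction.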

How the results depend on the processing

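Of 96 recomputed differences between paired genes, 92 kept their sign. Chuk minus Ikbkb turned to -0.0601 with the longest transcript, -0.35 as CPM and, in an alternative chosen after seeing the data, -0.41 with the principal transcript, and Nfkb1 minus Nfkb2 turned to 0.0483 as CPM. These settings differ only in the length used. At a cutoff of 5 TPM, 16 genes in place of 29 passed by their median and 10 in place of 17 in every mouse. By a mean above 1 TPM in place of the median, 33 genes passed, with Tlr6, Cd14, Ikbkg and Il18 added. Leaving out each mouse in turn gave 29 to 30 genes by the median, 18 to 22 in every mouse and 26 to 29 with at least 3 counts. The 22 came from leaving out mouse 2, which has no count of Tlr4, Irak2 and Il1rap. Requiring at least 10 counts in every mouse left 24 by the median, and thinning to the smallest library left the 26 with 3 counts as they were. Among alternatives added later, mouse 2 was highest for 8 of 16 genes at a cutoff of 5 TPM, in place of 13 of 29, and for 7 of 8 target genes with at least 3 counts in every mouse, in place of 12 of 14. The share of 26.2% of protein-coding genes highest in mouse 2 holds for a median above 1 TPM. No such share was computed under these other filters. TMM and median-of-ratios factors moved no gene's mean by more than its SD, the longest transcript moved 3 (Ikbkb, Nfkb1 and Il1rap), scaling without the 10 highest genes 14 and CPM 24. No pairing of samples across groups was possible because there is 1 group. With 4 mice no pair test can pass 0.05, so its p says nothing of stability.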

Other observations

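Tbk1, a kinase below TRIF that is no member of the set described, had nearly the same level in each mouse, at 9.90, 9.20, 8.79 and 9.45 TPM, or 9.34 ± 0.47 TPM (SD, n = 4). It was chosen after its values were seen. Of the listed target genes, Cxcl1 had 410, 2397, 0 and 1 counts, Ptgs2 had 6, 837, 534 and 0, Cxcl10 had 0, 509, 176 and 0, and Il6 had a single count in mouse 2.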
